A study of Mus musculus with 18 samples.

Results

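The clustered histone genes are the genes that code for the core and linker histones from a few tight gene clusters in the mouse genome. They were taken as the rows of the deposited gene table whose symbol begins with Hist1h, Hist2h, Hist3h or Hist4h, and 69 of the 24602 rows met this rule. By histone class they were 6 H1, 19 H2a, 19 H2b, 12 H3 and 13 H4 genes, and by cluster 55 lay in the first, 10 in the second, 3 in the third and 1 in the fourth. The study sequenced RNA from mice of strain 129S1/SvlmJ that carry a knock-in of the R388W change in Nup93, a scaffold protein of the nuclear pore. Nuclear RNA and total RNA were each read from 3 genotypes with 3 libraries a group: Nup93 Wild type, Nup93 R388W/+ (heterozygous) and Nup93 R388W/R388W (homozygous), giving 6 groups and 18 libraries. The design text speaks of isolated podocytes, the tissue label says only mouse tissue, and no treatment was named. Age, pooling and whether replicates came from separate animals are not given in the sources used here, so each p-value rests on the spread among libraries, which may be technical. Gene counts do not read the base change itself.

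Histone proteins package DNA, and a dividing cell needs a new set of them in each S phase. The clustered genes have no introns as a rule, and their messages end in a short stem-loop in place of a poly(A) tail. SLBP binds the stem-loop, and with U7 snRNA and a cleavage complex makes the 3′ end, takes part in export of the message through the nuclear pore and supports its translation. When DNA synthesis stops, the message is destroyed through the same stem-loop. Some clustered genes also make a longer, polyadenylated message from a site downstream of the stem-loop, mostly in cells that no longer divide. The libraries here were made with an mRNA kit that picks poly(A) tails, so the counts read mainly such polyadenylated forms and only what else passed the selection.

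The stem-loops of members with enough counts to test are shown because they are the 3′ end signal that the family shares. They were read from GENCODE M21 transcripts (GRCm38), 5′ to 3′ on the sense strand, with T for U. Capitals mark the 16 bases of the pattern, which has arms of 6 bases around a loop of 4 and reads GG, any 2 bases, CTTT, any 2, AG, any 2 and CC. The 5 bases on each side are in lower case.
Hist1h1c: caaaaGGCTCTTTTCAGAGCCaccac
Hist1h1d: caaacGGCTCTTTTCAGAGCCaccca
Hist1h1e: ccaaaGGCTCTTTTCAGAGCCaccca
Hist1h2be: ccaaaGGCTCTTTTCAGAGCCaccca
Hist3h2a: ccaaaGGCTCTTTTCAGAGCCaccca
Hist3h2ba: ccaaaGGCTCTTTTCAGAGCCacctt
Hist1h2bb: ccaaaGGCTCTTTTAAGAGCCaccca
Hist1h2ac: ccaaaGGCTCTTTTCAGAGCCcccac
Hist1h2bk: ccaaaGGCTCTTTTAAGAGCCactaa
Hist1h4c: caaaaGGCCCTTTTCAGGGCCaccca
Hist1h4h: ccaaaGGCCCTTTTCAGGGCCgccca
Hist1h4i: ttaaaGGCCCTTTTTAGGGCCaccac
The pattern was present in the longest annotated transcript of 43 of the 69 members and of 12 of the 16 that were tested in any fit. Searched in any transcript, it was in 162 of 21877 protein-coding genes (0.741%), members included. The form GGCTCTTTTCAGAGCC was the most frequent, in 25 members of which 7 were tested. The other forms were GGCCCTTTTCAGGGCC in 7 members, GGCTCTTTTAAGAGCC in 6, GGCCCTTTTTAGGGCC and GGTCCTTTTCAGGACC in 2 each and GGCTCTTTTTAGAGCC in 1. Tested members without a match in these transcripts were Hist1h2al, Hist1h2bc, Hist2h2bb and Hist2h2be. Some entries are short, as for Hist2h2bb with 381 bases against a deposited length of 493. A missing match therefore does not show that a message lacks the stem-loop. Most tested members with a match had annotated sequence well past it: 840 bases in the longest transcript of Hist1h1c, 4884 in Hist1h1d, 1153 in Hist1h1e, 1861 in Hist1h2be and 1643 in Hist3h2a. By contrast, 23 bases followed it in Hist1h2bb, 30 in Hist1h2bk and 46 in Hist1h4h. An AATAAA within the last 50 bases of a transcript was found for Hist1h1c, Hist2h2be, Hist3h2a and Hist3h2ba. Deposited gene lengths were below these longest transcripts in Hist1h1c (725 against 1560 bases), Hist1h1d (776 against 7425), Hist1h1e (782 against 1930) and Hist3h2a (508 against 2146). They were also below them in Hist1h2bc (774 against 1156), Hist1h2ac (487 against 2482), Hist1h4i (403 against 727) and Hist1h4c (375 against 820). The same held for Hist3h2ba (462 against 614), Hist1h2bb (490 against 508) and Hist1h4h (435 against 470). In Hist1h2be they were 2510 and 2506. For the genes with shorter deposited lengths, reads past the stem-loop, or from other parts of the longest transcript, may therefore not be in the counts. Which 3′ end a counted read came from was not tested, since gene counts do not hold it.

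Library totals ran from 17405493 to 23462056 counts. The deposited column of total RNA, wild type, replicate 1 summed to 200140709 counts, 10.2 times the mean of the others. It was at least as high as the sum of the 9 nuclear columns in every gene (0 genes below), so that sum (181106189 counts) was subtracted, which left 19034520. Xist averaged 516 and 504 CPM (counts scaled to the library total after TMM adjustment) in the heterozygous and homozygous nuclear groups and 0.538 in the wild-type nuclear group, but 346 in the wild-type total group and 0.624 and 1.25 in the heterozygous and homozygous total groups. The summed Y-linked genes showed the opposite order. Nuclear and total libraries that carry the same genotype label therefore did not come from the same animals. Homozygous against heterozygous within a fraction was therefore the one genotype comparison whose groups had the same Xist status. In every comparison with the wild type, and in every nuclear to total comparison, genotype or fraction and Xist status cannot be told apart. Markers did not bear out a pure podocyte sample: the 10 podocyte markers were all at 1 CPM or more in every library but held 0.0391% to 0.0707% of counts, while 10 proximal tubule markers held 3.05% to 3.51%. In the total RNA of homozygous replicate 2, Rn45s, the ribosomal RNA precursor, took 7.12% of counts, against 0.110% to 1.02% in the other 17 libraries. In these bulk samples, fewer cells of a type and less RNA per cell cannot be told apart.

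Few clustered genes gave enough counts to compare. Of the 69, 9 had no count in any library and 29 had under 10 counts over all 18 libraries. The low-count filter passed 15 in the fit of the 9 nuclear libraries, the same number in the fit of the 9 total libraries and 16 in the fit of all 18, where Hist1h2bk was the one added. No H3 gene passed, and the 12 H3 genes together had 0 to 14 counts a library. The 53 members tested in no main fit had at most a mean of 0.391 CPM each. A count of 3, the limit that a count of 0 allows, is worth 0.128 to 0.172 CPM in these libraries.

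A pair of genes carried most of the reads. Of 94185 counts on members over all libraries, Hist1h1c, which codes for linker histone H1.2, held 39.1% and Hist1h2bc, an H2B gene, held 37.2%. Next came Hist3h2a, an H2A gene of cluster 3, with 7.22%, Hist1h4i with 3.62%, Hist2h2be with 2.63% and Hist1h2al with 2.01%. Per kilobase of the deposited gene length the order was led by the same genes, with a mean level over all libraries of 145 CPM per kb for Hist1h1c, 129 for Hist1h2bc, 37.7 for Hist3h2a and 24.2 for Hist1h4i. In wild-type total RNA Hist1h2bc stood above Hist1h1c, at 142 against 98.1 CPM per kb. Over all libraries Hist1h4h followed at 5.73, Hist1h1e at 4.28, Hist2h2bb at 3.71, Hist3h2ba at 3.38 and Hist1h4c at 3.34, and Hist1h2bk was at 0.768. Levels in this lower range also varied by group: Hist1h4h averaged 4.73 CPM (SD 0.156, n = 3) in wild-type nuclear RNA and 1.61 (SD 0.527) in homozygous total RNA.

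The summed level of all 69 members, on the scale of TMM-scaled CPM, was lowest in the total RNA of the homozygous mice. It was 319 ± 8.29 CPM (SD, n = 3 here and below) in wild-type nuclear RNA, 286 ± 0.951 in heterozygous nuclear RNA and 305 ± 12.9 in homozygous nuclear RNA. In total RNA it was 248 ± 1.85 in the wild type, 298 ± 5.88 in the heterozygous group and 152 ± 8.84 in the homozygous group. The 3 homozygous total libraries lay between 143.2 and 160.9 CPM and the 3 heterozygous ones between 293.6 and 304.8, so the groups did not overlap. Without Hist1h1c and Hist1h2bc the sums were 56.7 CPM in heterozygous and 34.4 in homozygous total RNA, and 60.9 and 84.2 in nuclear RNA. By class, the homozygous and heterozygous total groups had 68.9 and 126 CPM for H1, 16.3 and 22.2 for H2a, 57.0 and 132 for H2b and 9.91 and 17.9 for H4. The H3 sums, 0.202 and 0.200 CPM, were too low to compare at this depth.

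**Figure D1:**
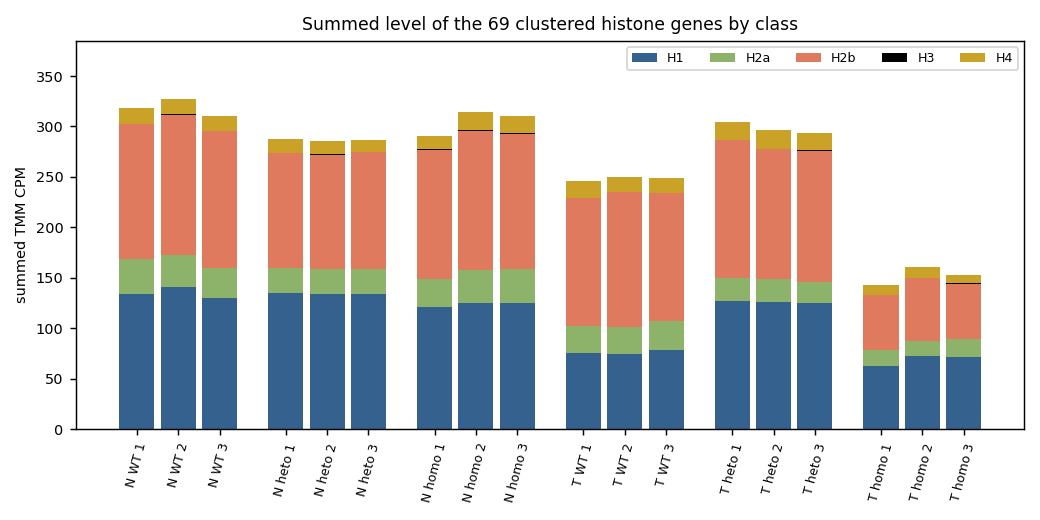
Summed TMM-scaled CPM (vertical axis) of the 69 clustered histone genes in each of the 18 libraries (horizontal axis, N nuclear, T total RNA), stacked by histone class. The 3 homozygous total libraries are the lowest bars, at 143.2 to 160.9 CPM, and most of the height in all libraries is H1 and H2b.

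Homozygous against heterozygous total RNA asks how the messages differ with the number of mutant alleles in groups of the same Xist status. Of the 15 members tested, 12 were lower in the homozygous group and 0 higher (edgeR's quasi-likelihood test, Benjamini-Hochberg adjusted p under 0.05 over all 15051 genes tested). Over all genes tested, 67% were called, 32.9% higher and 34.1% lower. Lower by at least 2-fold were 7 members, against 3.81% of all genes. The median log2 difference of the 15 was -0.85, and that of all genes was 0.01. In 11 of the 15 every homozygous library lay below every heterozygous one, beside 35.2% of all genes tested, and in 0 above, beside 33.5%. All 15 met the count filter on the wild-type group alone, which does not enter this comparison. On the heterozygous group alone 12 did and on the homozygous group alone 10 did, of which 9 were lower. Library totals alone, without TMM scaling, gave 9 lower and 0 higher, and moved the median of all genes to 0.16.

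The H1 genes, for the linker histones that bind DNA between nucleosomes, were lower in all 3 tested cases. Hist1h1c was at 124, 123 and 121 CPM in the heterozygous total libraries (replicates 1 to 3) and at 62, 70.8 and 70.8 in the homozygous ones. The groups were far apart, with a 1.80-fold lower level in the homozygous group (log2 -0.85, SE 0.03, edgeR adjusted p = 6.12e-48). Hist1h1d was at 0.454, 0.985 and 1.12 CPM in the heterozygous and 0.101, 0.0983 and 0.202 CPM in the homozygous libraries. No libraries overlapped, but the homozygous values rest on 2, 2 and 4 counts. The heterozygous to homozygous ratio of the pooled counts (43 against 8) was 6.32, with a 95% exact interval of 2.94 to 15.6 that covers counting error only, and the fitted log2 difference was -2.60 (SE 0.51, edgeR adjusted p = 2.61e-06). Hist1h1e was at 2.78, 1.80 and 2.68 CPM in the heterozygous and 0.456, 1.03 and 0.708 CPM in the homozygous libraries, again with no overlap (log2 -1.70, SE 0.26, edgeR adjusted p = 3.63e-09).

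The H2B genes gave both large and small differences. Hist1h2bc was at 124, 115 and 118 CPM in the heterozygous total libraries and at 48.0, 54.3 and 47.7 in the homozygous ones. That is 2.37-fold lower with no overlap (log2 -1.25, SE 0.04, edgeR adjusted p = 7.71e-62). Hist1h2be was at 2.61, 3.65 and 3.24 CPM against 0.963, 0.885 and 0.859 CPM, with the 3 homozygous libraries close together (log2 -1.80, SE 0.22, edgeR adjusted p = 1.53e-12). Hist2h2be, from cluster 2, was at 4.54, 4.40 and 4.61 CPM against 3.35, 3.69 and 3.44 CPM. It did not overlap between groups but differed by only 1.29-fold (edgeR adjusted p = 0.0232), and lost the call with library totals alone, with DESeq2 and without any of 3 single libraries. Hist2h2bb was at 0.568, 0.348 and 0.873 CPM in the heterozygous and 0.101, 0.934 and 0.354 CPM in the homozygous libraries. These groups overlapped, since homozygous replicate 2 was the highest of the 6, and the difference was not called (log2 -0.33, SE 0.43, edgeR adjusted p = 0.517). Without that replicate it was called (log2 -1.34, edgeR adjusted p = 0.0262). Hist3h2ba, of cluster 3, averaged 1.48 ± 0.376 CPM in the heterozygous and 0.365 ± 0.219 in the homozygous group (log2 -1.98, SE 0.36, edgeR adjusted p = 5.12e-07). Hist1h2bb had a log2 difference of -0.69 (SE 0.24, edgeR adjusted p = 0.00861), and lost the call without heterozygous replicate 2.

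Among H2A genes, Hist3h2a was at 16.1, 16 and 13.7 CPM in the heterozygous total libraries and at 12.8, 11.7 and 14.2 in the homozygous ones. The groups overlapped, the log2 difference was -0.24 (SE 0.08, edgeR adjusted p = 0.0078), and with library totals alone it was -0.09 and not called. It was also lost without heterozygous replicate 1 or homozygous replicate 2. Hist1h2al was at 6.24, 5.85 and 6.17 CPM against 2.48, 2.46 and 2.83 CPM, with wide separation (log2 -1.23, SE 0.15, edgeR adjusted p = 6.02e-13). The GENCODE M21 entry of that symbol is a processed pseudogene of 339 bases, and the deposited length is 2983, so which transcript its counts read is unsure. Hist1h2ac averaged 0.289 and 0.167 CPM and was not called (log2 -0.79, SE 0.65, edgeR adjusted p = 0.281).

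H4 genes were mixed. Hist1h4i was at 13.4, 14 and 13.1 CPM in the heterozygous total libraries and 7.20, 6.0 and 5.81 CPM in the homozygous ones, a 2.12-fold lower level without overlap (log2 -1.09, SE 0.10, edgeR adjusted p = 1.2e-18). Hist1h4h was at 2.38, 1.22 and 1.62 CPM against 1.22, 2.21 and 1.42 CPM. The groups overlapped and the difference was not called (log2 -0.10, SE 0.24, edgeR adjusted p = 0.719). Hist1h4c was at 1.65, 1.39 and 1.56 CPM against 1.27, 1.08 and 0.556 CPM, which is below in every library by a small margin (log2 -0.65, SE 0.28, edgeR adjusted p = 0.033). Its call was lost with DESeq2, with library totals alone, with the wild-type column as deposited and without any of 3 single libraries. Hist1h1c, Hist1h1d, Hist1h1e, Hist1h2al, Hist1h2bc, Hist1h2be, Hist1h4i and Hist3h2ba, 8 of the 12, kept the call in every alternative that tested them.

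**Figure D2:**
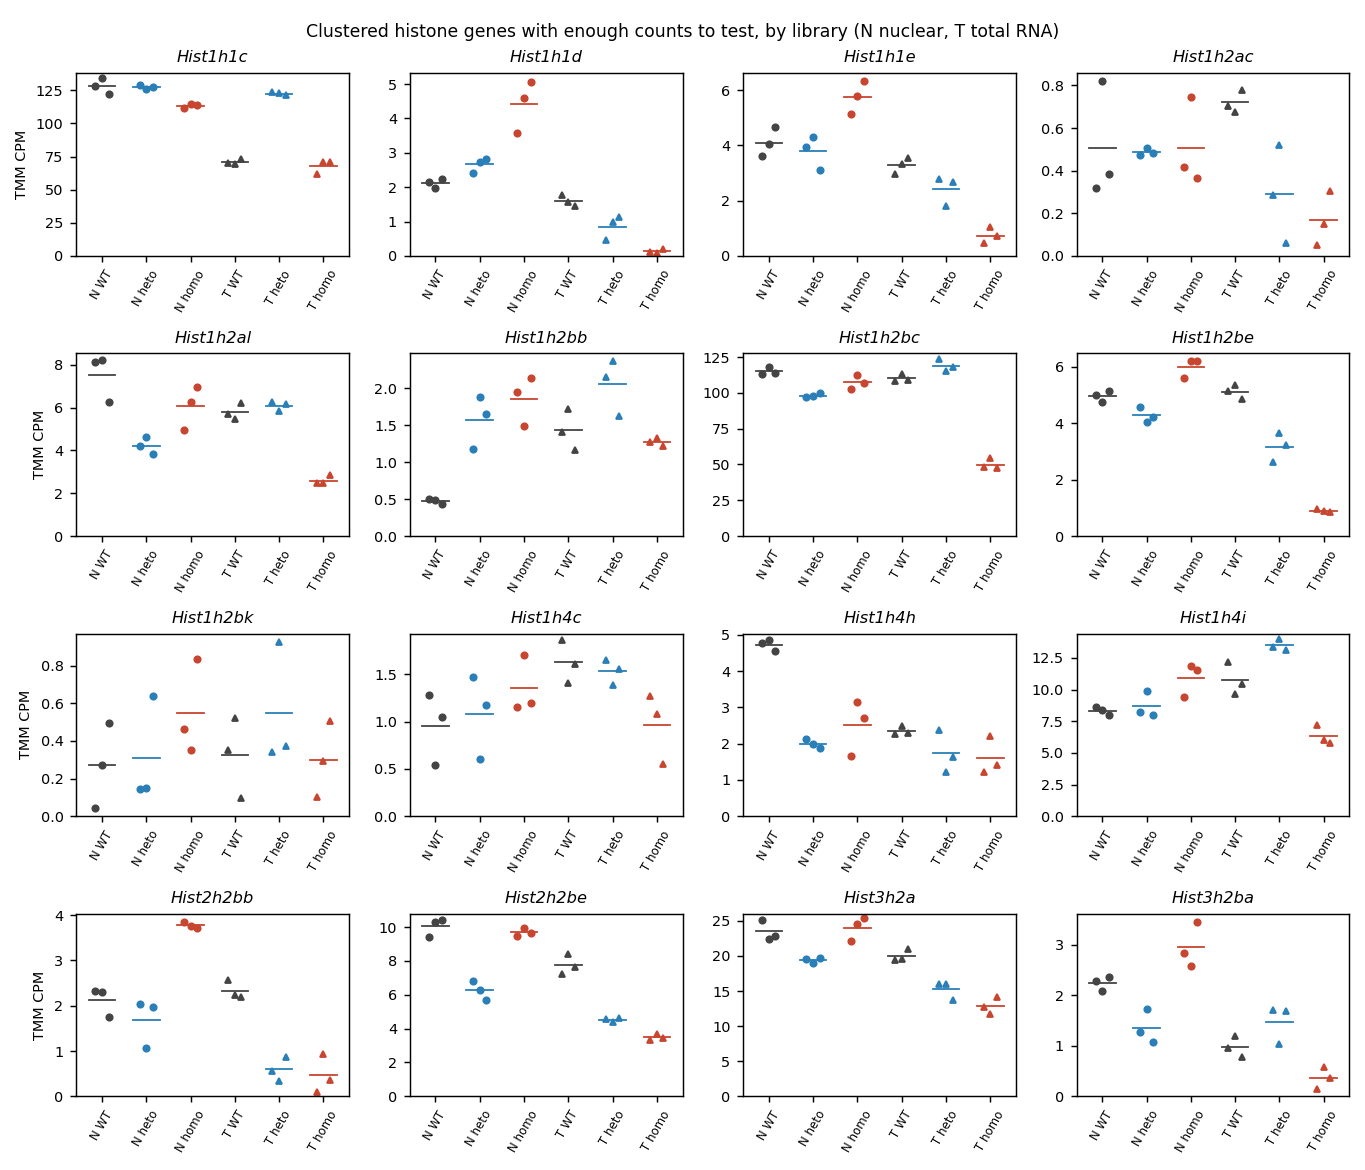
TMM-scaled CPM (vertical axis, own linear scale from 0 in each panel) of the 16 tested members in every library, with 3 points a group, circles for nuclear and triangles for total RNA and a bar at the group mean. For Hist1h2bc the homozygous total libraries sit at 47.7 to 54.3 CPM and all other libraries at 96.9 or more.

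The libraries also differed in other ways beside this result. From heterozygous to homozygous total RNA the summed podocyte markers went from 0.0393% to 0.0677% of counts, the 8 endothelial markers from 0.0670% to 0.103%, the 8 distal nephron markers from 0.857% to 1.03% and the 10 immune markers from 0.0869% to 0.0960%. The part of these shares in the histone values was not tested. Transcripts with no poly(A) tail were highest in homozygous replicate 2: Rmrp was at 64.1 CPM there and at 1.01 and 0.859 CPM in replicates 1 and 3, and Rpph1 at 134, 3.30 and 2.73 CPM. Without that library 12 of the tested members were lower and 0 higher: Hist3h2a lost its call (log2 -0.18, edgeR adjusted p = 0.0762) and Hist2h2bb gained one. The share of all genes called without that library is not given here.

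In nuclear RNA, from other animals of the opposite Xist status, the same genotype comparison went mostly the other way. Of 15 members tested, 10 were higher in the homozygous than in the heterozygous group and 1 was lower (edgeR, adjusted over 15112 genes), while 43.2% of all genes were called, 21.4% higher and 21.8% lower. The median log2 difference was 0.33, against -0.00 over all genes. In 9 of the 15 every homozygous library lay above every heterozygous one, beside 24.9% of all genes tested, and in 1 below, beside 24.6%. At least 2-fold higher were 2 members, against 0.834% of all genes. With library totals alone 9 were higher and 1 lower.

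Hist1h1c was the member that was lower. Its nuclear level was 129, 126 and 128 CPM in the heterozygous libraries and 112, 115 and 114 in the homozygous ones, a small but separate shift (log2 -0.17, SE 0.03, edgeR adjusted p = 1.46e-05). The other H1 genes rose: Hist1h1d was at 2.41, 2.74 and 2.83 CPM in the heterozygous and 3.57, 4.59 and 5.07 CPM in the homozygous libraries, with no overlap (log2 0.72, SE 0.16, edgeR adjusted p = 0.000104). Hist1h1e was at 3.93, 4.32 and 3.10 CPM against 5.14, 5.77 and 6.32 CPM, also with no overlap (log2 0.59, SE 0.14, edgeR adjusted p = 0.000231).

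The largest nuclear differences were in H2B genes of clusters 2 and 3. Hist2h2bb was at 2.04, 1.07 and 1.98 CPM in the heterozygous libraries and at 3.84, 3.76 and 3.71 in the homozygous ones, which is 2.22-fold higher (edgeR adjusted p = 2.48e-07). The annotated exons of Hist2h2bb lie wholly against those of Gm20628 on the other strand, and the strand setting of the counting is not given in the sources used here, so the reads of the pair may not be told apart. Hist3h2ba averaged 1.36 ± 0.336 CPM against 2.95 ± 0.447 CPM (2.15-fold, edgeR adjusted p = 6.6e-06). Hist2h2be was at 6.82, 6.29 and 5.72 CPM against 9.45, 9.97 and 9.66 CPM, with the homozygous libraries close together and apart from the others (log2 0.62, SE 0.10, edgeR adjusted p = 2.66e-07). Hist1h2be was at 4.59, 4.06 and 4.22 CPM against 5.60, 6.21 and 6.21 CPM (log2 0.48, SE 0.13, edgeR adjusted p = 0.00113). Hist1h2bc was at 96.9, 97.8 and 99.6 CPM against 103, 113 and 107 CPM, so the groups were separate but close (log2 0.13, SE 0.04, edgeR adjusted p = 0.00205), and the call was lost with library totals alone and without homozygous replicate 2.

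The H2A and H4 genes had log2 differences of at most 0.51. Hist3h2a was at 19.5, 19.0 and 19.7 CPM in the heterozygous and 22.1, 24.6 and 25.3 CPM in the homozygous nuclear libraries (log2 0.30, SE 0.07, edgeR adjusted p = 7.23e-05). Hist1h2al was at 4.21, 4.62 and 3.85 CPM against 4.95, 6.25 and 6.95 CPM (log2 0.51, SE 0.13, edgeR adjusted p = 0.00103). Neither gene overlapped between groups. Hist1h4i was at 8.24, 9.90 and 7.97 CPM against 9.45, 11.9 and 11.5 CPM, with overlap at heterozygous replicate 2 (log2 0.33, SE 0.10, edgeR adjusted p = 0.00353), and was not called without homozygous replicate 2. Hist1h2ac, Hist1h2bb, Hist1h4c and Hist1h4h had log2 differences of 0.09, 0.24, 0.32 and 0.33 and were not called, though Hist1h4h was called without homozygous replicate 1 (log2 0.56). Beside these values, the immune markers were at 0.159% of counts in the heterozygous and 0.0515% in the homozygous nuclear group, and the podocyte markers at 0.0671% and 0.0549%; the part of these shares in the histone values was not tested.

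**Figure D3:**
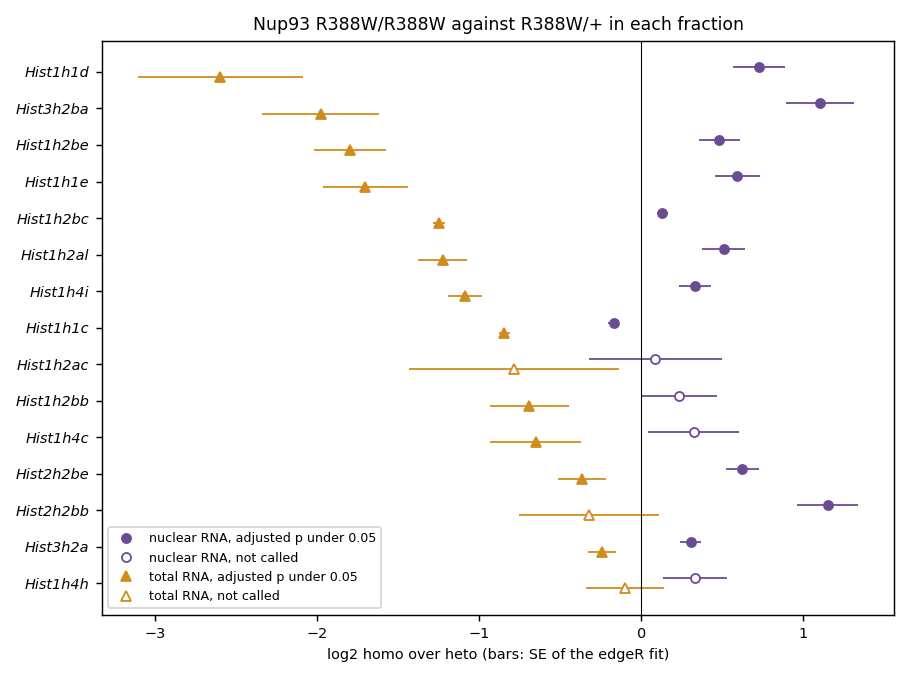
Log2 of the homozygous over the heterozygous level (horizontal axis, bars are the SE of the edgeR fit) for the 15 members tested, with circles for nuclear and triangles for total RNA, filled where the adjusted p was under 0.05. All 15 total values lie below 0, from -2.60 for Hist1h1d to -0.10 for Hist1h4h, and all nuclear values but that of Hist1h1c lie above it.

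Whether the 2 fractions differed in their response was tested as an interaction, the log2 nuclear to total difference in the homozygous group minus that in the heterozygous group. It was positive and called in 13 of 16 members and negative in 0 (edgeR over 15410 genes in 1 fit of all 18 libraries), beside 63.6% of all genes called, 31.7% higher and 31.9% lower. At least 2-fold were 8 members, against 5.52% of all genes, and the median was 1.40 on the log2 scale, against -0.02 over all genes. The nuclear and total libraries of a genotype differed in Xist status in this contrast in the same way in both genotypes, so it cancels only where its part is the same in both, which was not tested. Hist1h1d had the highest value (log2 3.33, SE 0.51, edgeR adjusted p = 3.1e-09), followed by Hist3h2ba (3.09, SE 0.41), Hist1h1e (2.30) and Hist1h2be (2.28). Of the members tested, Hist1h1d, Hist3h2ba, Hist1h1e, Hist2h2bb and Hist1h2ac did not meet the count filter on the homozygous total group alone. Their higher ratios in the homozygous group were thus fixed in part by the filter. Hist1h4c lost its call in 7 of 18 alternatives and Hist1h2bb in 2. Hist1h2bc stood at 1.38 (SE 0.05), Hist1h1c at 0.68 and Hist3h2a at 0.55. Members not called were Hist1h2ac, Hist1h2bk and Hist1h4h. Without homozygous total replicate 2 the number was again 13, all higher, and the share of all genes in that fit is not given here. The same interaction of the homozygous group with the wild type was positive in 13 of 16 members and negative in 0, beside 56.1% of all genes called (28.4% higher, 27.7% lower), and 11 members were at least 2-fold, beside 7.89% of all genes. That of the heterozygous group with the wild type was positive in 4 and negative in 5, beside 70.7% of all genes called (37.8% higher, 32.9% lower).

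Measured within each genotype, the nuclear level was above the total level mainly in the homozygous group. There 14 of 16 members were higher in nuclear RNA and 0 lower (edgeR, median log2 1.16), beside 60.3% of all genes called, 30.5% higher and 29.8% lower. At least 2-fold higher were 9 members, against 3.22% of all genes. Of the 14, Hist1h2bb kept its call in only 3 of 12 alternatives, and Hist1h2ac and Hist1h4h in 10 of 12 each. Hist1h1d was higher by 4.97 on the log2 scale (SE 0.32), with the total value near the limit of counting, Hist2h2bb by 3.0 (SE 0.27), Hist3h2ba by 2.97 (SE 0.29), Hist1h1e by 2.95 (SE 0.20) and Hist1h2be by 2.73 (SE 0.18). In the wild type 6 were higher and 3 lower (median 0.15), beside 61.7% of all genes called (30.9% higher, 30.8% lower), with Hist1h1c higher by 0.85 (SE 0.04) and Hist1h2bb lower (log2 -1.56, SE 0.32). In the heterozygous group 6 were higher and 3 lower (median 0.13), beside 63.6% called (33.4% higher, 30.2% lower), with Hist1h1d higher by 1.64 (SE 0.25) and Hist1h4i lower (log2 -0.63, SE 0.10). Hist1h1d, Hist1h1e, Hist1h2ac, Hist2h2bb and Hist3h2ba did not meet the count filter on the homozygous total group alone, so their higher nuclear values were fixed in part by the filter. Calls kept in every alternative were 11 of 14 in the homozygous group, 3 of 9 in the wild type and 7 of 9 in the heterozygous group. CPM are shares of each library, so a nuclear to total difference compares shares and not amounts of RNA per cell.

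Against the wild type, homozygous total RNA had 13 of 15 members lower and 0 higher, with a median log2 of -1.14 against -0.00 over all genes (edgeR). Of all genes 61.6% were called, 30.6% higher and 31% lower. Lower by at least 2-fold were 9 members, beside 3.41% of all genes. In 13 members every homozygous library lay below every wild-type one, beside 32.8% of all genes tested. Hist1h1d, Hist1h1e, Hist1h2ac, Hist2h2bb and Hist3h2ba did not meet the count filter on the homozygous group alone, so they entered the test through higher groups and a lower value here was fixed in part by the filter. Hist1h2bc was at 108, 113 and 109 CPM in the wild-type total libraries, 2.19-fold above the homozygous group (log2 -1.13, SE 0.04). Hist1h2be, at 5.14, 5.36 and 4.87 CPM in the wild type, was lower by 5.62-fold in the homozygous group (log2 -2.49, SE 0.20). Hist1h1c was not called: it was at 70.4, 69.7 and 73.3 CPM in the wild type, and its homozygous values of 62, 70.8 and 70.8 CPM overlapped these (log2 -0.06, edgeR adjusted p = 0.133). Hist1h2bb was also not called (log2 -0.16).

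Heterozygous total RNA differed from the wild type in both directions, with 4 of 15 members higher and 7 lower (edgeR, median -0.38), beside 61.1% of all genes called, 30.9% higher and 30.3% lower. Hist1h1c was higher by 0.78 on the log2 scale (SE 0.03, edgeR adjusted p = 6.75e-45), so for this gene the heterozygous total group stood above both other total groups. Hist1h2bb (0.53), Hist1h4i (0.33) and Hist1h2bc (0.11) were the other members that were higher. Hist1h2bb kept this call in only 6 of 14 alternatives, and was lost with DESeq2, the replicate block, no low-count filter, library totals alone and without any of 4 single libraries. With library totals alone Hist1h2bc turned to -0.06 and only 1 member was higher and 8 lower. Hist2h2bb (-1.97), Hist1h2ac (-1.27), Hist1h1d (-0.91) and Hist2h2be (-0.78) had the most negative values. Of the 15, Hist1h1d, Hist1h2ac and Hist2h2bb did not meet the filter on the heterozygous group alone. Both of these comparisons share the wild-type libraries.

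In nuclear RNA the homozygous group had 5 of 15 members higher and 4 lower than the wild type, beside 54.3% of all genes called (26.5% higher, 27.8% lower), and library totals alone gave 8 and 1. The heterozygous group had 1 higher and 6 lower, beside 64.6% called (32.8% higher, 31.7% lower), and library totals alone gave 4 and 4. Hist1h2bb was the gene with the strongest rise in both, at 0.501, 0.491 and 0.439 CPM in the wild-type nuclear libraries against 1.94, 1.49 and 2.14 CPM in the homozygous (log2 1.93, SE 0.30, edgeR adjusted p = 4.1e-08) and 1.57 ± 0.355 CPM in the heterozygous group (log2 1.70). No library of the wild type reached those of the homozygous group. Hist1h2bb and Hist1h2ac did not meet the count filter on the wild-type nuclear group alone, so a higher value of Hist1h2bb in the mutant groups was fixed in part by the filter. Hist1h4h was the opposite case, at 4.78, 4.86 and 4.56 CPM in the wild type against 1.67, 3.15 and 2.72 CPM in the homozygous (log2 -0.91, SE 0.16) and 2.13, 1.98 and 1.87 CPM in the heterozygous libraries (log2 -1.24, SE 0.18). These comparisons also share the wild-type libraries and differ in Xist status.

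Histone genes outside the clusters, many of which make polyadenylated messages, gave calls in both directions. In homozygous against heterozygous total RNA 5 of 11 tested were higher and 2 lower (edgeR, median log2 0.10), beside 32.9% and 34.1% of all genes. H3f3b, for the replacement histone H3.3, averaged 351 ± 1.09 CPM in the heterozygous and 489 ± 11.4 CPM in the homozygous group (log2 0.48, SE 0.02), and H1f0, a linker histone of non-dividing cells, 344 ± 7.29 and 401 ± 15.6 CPM (log2 0.23, SE 0.02). H3f3a was higher (0.15) and H2afy, for macroH2A, lower (-0.24). In nuclear RNA 3 of 11 were higher and 2 lower (median -0.02), beside 21.4% and 21.8% of all genes, with H1f0 at -0.13, H2afj at 0.20, H2afv at 0.19 and Cenpa, the centromeric H3, at -0.78.

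Genes for the making, export and decay of histone messages had 3 of 24 tested members higher and 10 lower in the same total comparison (edgeR, median -0.09), beside 32.9% and 34.1% of all genes, so the share lower was near that of all genes. Among those lower were Lsm4 (log2 -0.73), of the decay-linked Lsm ring, Ncbp2 (-0.43), of the cap-binding complex, and Upf1 (-0.31), an RNA helicase of decay, while Nxf1, the main mRNA export receptor, was higher (0.35). In nuclear RNA 2 were higher and 2 lower (median -0.03), beside 21.4% and 21.8% of all genes: Lsm4 at 0.16 and Cpsf3 at 0.11, Cpsf2 at -0.13 and Srrt at -0.10. Histone chaperones had 5 of 18 higher and 6 lower in total RNA (median 0.02), with Npm1 at 0.37, Ipo4 at -0.51, Nap1l1 at -0.49 and Rbbp4 at -0.41, and in nuclear RNA 1 higher and 2 lower (median -0.02).

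Genes of S phase and proliferation had 9 of 32 tested members higher and 4 lower in homozygous against heterozygous total RNA (edgeR, median 0.10), beside 32.9% and 34.1% of all genes, so the share higher was near that of all genes. Pcna, the replication clamp, was higher (log2 0.43) as was Ung (0.87), while Mcm10 was lower (-1.66). In nuclear RNA 2 of 33 were higher and 11 lower (median -0.14), beside 21.4% and 21.8% of all genes, with Mki67 at -1.56, Top2a at -1.57 and Uhrf1 at -0.88 among those lower.

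**Figure D4:**
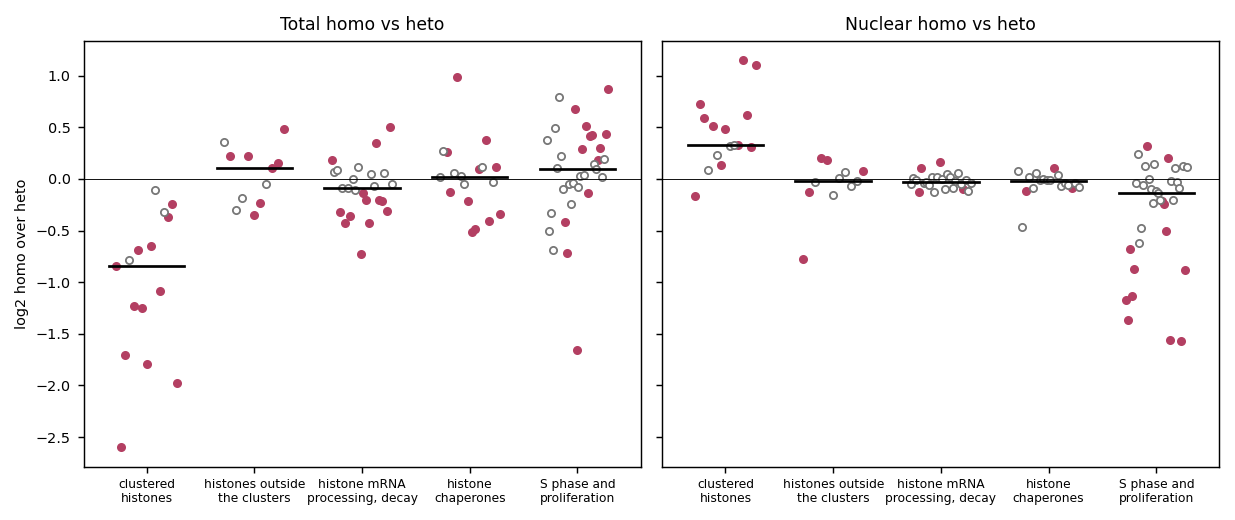
Log2 of the homozygous over the heterozygous level (vertical axis) for each tested gene of the clustered histones and 4 other lists (horizontal axis), in total RNA on the left and nuclear RNA on the right, filled where the edgeR adjusted p was under 0.05, with a line at each list's median. The clustered histones have a median of -0.85 in total and 0.33 in nuclear RNA, and the other medians lie between -0.14 and 0.10.

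Members that no main fit tested added few counts. The 53 together had 134 counts in the 3 heterozygous and 128 in the 3 homozygous total libraries, and 182 and 244 in the nuclear ones. By total library these were 41, 59 and 34 in the heterozygous and 34, 68 and 26 in the homozygous group. The 68 were in homozygous replicate 2, the library where Rn45s took 7.12% of counts. In each total group 25 of the 53 had no count. Near-identical copies and overlapping genes limit the reading of all these values. In GENCODE M21, a median of 60.4% of 50-base windows of an untested member were also found in a transcript of another gene, and 29.8% for a tested one. Both strands were searched, so a gene annotated over the same bases counts as well as a copy elsewhere. For Hist2h2bb the gene with the most shared windows was Gm20628, which overlaps it on the other strand. These shares are therefore not of copies alone. The share was 8.54% for Hist1h1c, 30.6% for Hist1h2bc, 2.25% for Hist1h1d, 17.9% for Hist1h2be, 67.6% for Hist1h2al and 100% for Hist2h2bb. Hist1h1e and Hist1h2be share 450 bases of GENCODE M21 exon on the same strand, so their counts may not be separate evidence. Hist3h2a shares 708 bases of exon with Trim17 and Hist2h2bb 226 with Gm42743, both on the same strand, and reads there may not be told apart. The deposited lengths of Hist1h1e (782 bases) and Hist3h2a (508) are below their longest M21 transcripts (1930 and 2146). Whether their shared bases were counted is therefore unsure. How reads that fit several copies were counted is not given in the sources used here.

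The start regions of Hist1h1d, Hist1h1e and Hist3h2ba, lower in homozygous total RNA and higher in homozygous nuclear RNA, are shown as examples that hold both TATAAA and CCAAT. They were picked for that content: other members with the same pair of calls lack one of them, with no TATAAA in either window of Hist1h2be and no CCAAT in that of Hist1h4i. The windows are from RefSeq (GRCm38.p6), 250 bases before to 50 after the start, of which 61 members had one and 62 windows were searched. Capitals mark TATAAA and CCAAT on either strand.
Hist1h1d: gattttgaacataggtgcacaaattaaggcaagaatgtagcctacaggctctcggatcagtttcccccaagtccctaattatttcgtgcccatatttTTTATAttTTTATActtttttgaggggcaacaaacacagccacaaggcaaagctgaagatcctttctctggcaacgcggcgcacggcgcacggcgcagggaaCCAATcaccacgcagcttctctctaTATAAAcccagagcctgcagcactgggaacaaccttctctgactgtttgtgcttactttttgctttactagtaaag
Hist1h1e: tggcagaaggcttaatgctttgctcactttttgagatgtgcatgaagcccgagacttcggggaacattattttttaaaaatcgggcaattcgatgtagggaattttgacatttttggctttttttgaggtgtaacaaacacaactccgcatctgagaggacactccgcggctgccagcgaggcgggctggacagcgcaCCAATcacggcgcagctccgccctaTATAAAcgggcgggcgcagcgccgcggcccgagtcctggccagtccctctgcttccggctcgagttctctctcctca
Hist3h2ba: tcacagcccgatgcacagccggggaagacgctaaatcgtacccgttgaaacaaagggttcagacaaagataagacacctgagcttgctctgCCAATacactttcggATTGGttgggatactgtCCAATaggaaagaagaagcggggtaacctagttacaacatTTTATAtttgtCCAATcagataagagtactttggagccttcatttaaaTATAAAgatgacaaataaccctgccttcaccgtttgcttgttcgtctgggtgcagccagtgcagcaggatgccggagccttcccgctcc
The window of Hist1h1d is chr13:23554782-23555081 on the plus strand, that of Hist1h1e chr13:23622509-23622808 on the minus strand and that of Hist3h2ba chr11:58948661-58948960 on the plus strand. TATAAA, searched on both strands, was in 35 of 62 member windows (56.5%) against 13.6% of 32851 windows of all genes. CCAAT was in 53 (85.5%) against 37.4%, and ATTTGCAT, the octamer of many H2B promoters, in 14 (22.6%) against 1.74%. Among 14 windows of tested members these were in 7, 12 and 6. The genes are 9 times arranged as H2a and H2b pairs that start from overlapping windows on opposite strands, 164 to 281 bases apart, and of these genes only Hist1h2bk had enough counts to test. A match of letters is not a shown binding site.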

How the data were processed

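RNA was extracted with TRIzol and sequenced after a stranded mRNA kit, per the labels' protocols. The authors deposited read counts per gene, whole and not normalized, in 1 table of 18 columns with gene lengths. The submitters' processing notes name CASAVA, STAR 2.5.2b, featureCounts, DESeq2 and the build mm9. The annotation and the strand setting are not given in the sources used here.

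From the total RNA, wild type, replicate 1 column the sum of the 9 nuclear columns was subtracted. Counts were fitted with edgeR 4.0.16 (R 4.3.3, limma 3.58.1): filterByExpr with a minimum of 10 counts, TMM scaling and the robust quasi-likelihood test on group means, Benjamini-Hochberg adjusted over all genes, called at an adjusted p under 0.05. Genotypes were compared in the 9 libraries of a fraction, and fractions and interactions in all 18. The script was tested on simulated data. CPM were TMM-scaled, and the total counts per library, 17405493 to 23462056, set their precision.

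The named genes were all members passing the filter in a fit, with values in every library for up to 4 tested genes a class by mean CPM, and up to 4 genes of smallest p in each other list. One item that this rule names is not reported here. The members and lists were chosen with earlier results of these data known. The list of transcripts with no poly(A) tail was added after seeing the data, as was giving group means for Hist3h2ba and Hist1h2ac. Alternatives were DESeq2 1.42.0, other scaling factors, filters and sample sets, a replicate block, the deposited column and leaving out each library. Coordinates are of GRCm38, not of the files' build, and no coordinate was carried between builds.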

Additional observations from a re-analysis of the deposited data

Results flagged for a closer look

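Each result here is a clustered histone gene whose nuclear to total difference was not the same in 2 genotypes, by the interaction term of the edgeR fit over all 18 libraries (adjusted p under 0.05). Values are differences of log2 differences. All nuclear and total libraries of a genotype differ in Xist status, so in the 2 contrasts with the wild type, where this difference has the opposite direction in the wild type, genotype and Xist status cannot be told apart. The 3 contrasts share libraries in pairs and are not independent. Hist1h1d, Hist1h1e, Hist1h2ac, Hist2h2bb and Hist3h2ba did not meet the count filter on the homozygous total group alone. Hist1h1d, Hist1h2ac and Hist2h2bb did not on the heterozygous total group, nor Hist1h2bb on the wild-type nuclear group. Higher ratios of these genes in those mutant groups, or of Hist1h2bb over the wild type, were fixed in part by the filter.

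Between the homozygous and the heterozygous group, where 63.6% of all genes were called, 31.7% higher and 31.9% lower, 13 of 16 members had a higher nuclear to total ratio in the homozygous group: Hist1h1d (3.33), Hist3h2ba (3.09), Hist1h1e (2.30), Hist1h2be (2.28), Hist1h2al (1.74), Hist2h2bb (1.48), Hist1h4i (1.42), Hist1h2bc (1.38), Hist2h2be (0.99), Hist1h4c (0.98), Hist1h2bb (0.93), Hist1h1c (0.68), Hist3h2a (0.55). Among these 13 the SE was at most 0.51, for Hist1h1d. Of 18 alternatives, Hist1h4c kept the call in 11, Hist1h2bb in 16 and Hist2h2bb in 17.

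Between the homozygous group and the wild type, where 56.1% of all genes were called, 28.4% higher and 27.7% lower, 13 members had a higher ratio in the homozygous group: Hist1h1d (4.56), Hist2h2bb (3.12), Hist1h2be (2.77), Hist1h1e (2.64), Hist1h2ac (2.13), Hist1h2bb (2.10), Hist3h2ba (1.78), Hist1h4c (1.23), Hist1h4i (1.15), Hist2h2be (1.10), Hist1h2bc (1.04), Hist1h2al (0.84), Hist3h2a (0.66). Hist1h1c was not called here (log2 -0.11, SE 0.05). Hist1h4c kept the call in 17 of 18 alternatives.

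Between the heterozygous group and the wild type, where 70.7% of all genes were called, 37.8% higher and 32.9% lower, 4 members had a higher and 5 a lower ratio: Hist2h2bb (1.64), Hist1h1d (1.24), Hist1h2bb (1.17), Hist1h2be (0.48), Hist1h2bc (-0.34), Hist1h1c (-0.79), Hist1h4h (-0.82), Hist1h2al (-0.91), Hist3h2ba (-1.31). Library totals alone gave 8 higher and 3 lower in this contrast. Of 18 alternatives, Hist1h2be kept the call in 13, Hist1h4h in 15 and Hist3h2ba in 17, and Hist1h1c and Hist1h2bc each kept it in 18 of 19.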

How the results depend on the processing

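Of 2720 values of single members under the alternatives, 2570 kept their side of the threshold, 102 lost the call, 43 gained it and 5 changed sign. A change of sign was counted only where the value was called in the main fit, in the alternative or in both. Values called in neither fit were counted among the 2570 whatever their sign. The 5 were all under library totals alone: Hist1h2bc in nuclear homozygous against wild type (0.025), total heterozygous against wild type (-0.065), nuclear against total in the wild type (-0.094) and the ratio of heterozygous to wild type (0.016), and Hist1h1c in nuclear heterozygous against wild type (0.17). The same setting moved the median log2 of all genes to 0.20 in nuclear heterozygous and 0.14 in nuclear homozygous against wild type, -0.19 in total heterozygous against wild type, -0.17 and 0.24 in nuclear against total for the wild type and the heterozygous group, and 0.43, 0.17 and -0.23 in the ratios of heterozygous to wild type, homozygous to wild type and homozygous to heterozygous. In homozygous against heterozygous it moved the share of higher calls over all genes from 49.6% to 33.5% in nuclear and from 49.1% to 68.4% in total RNA, and against the wild type in nuclear heterozygous, nuclear homozygous and total heterozygous RNA it gave 75.9%, 73.9% and 24.5% in place of 50.9%, 48.8% and 50.5%. In nuclear against total it gave 25.4% in place of 50.1% for the wild type and 77.3% in place of 52.5% for the heterozygous group, and in the 3 ratios, in the order above, 78.7%, 70.4% and 29.1% in place of 53.4%, 50.7% and 49.8%.

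With a mean of at least 5 CPM fewer members were tested, which left 72 values over all comparisons where the main fits had 186. Of the 72, 69 kept their side of the threshold, 1 lost the call and 2 gained it. Counts of calls in this paragraph and the next have no share of all genes beside them. They are therefore not read as a result about the members. The calls were 4 in nuclear homozygous and 4 in nuclear heterozygous against wild type, and 7 in nuclear homozygous against heterozygous. In total RNA they were 4, 5 and 5 in homozygous against wild type, heterozygous against wild type and homozygous against heterozygous. Nuclear against total gave 5 and 6 in the wild type and the homozygous group, and the heterozygous group is not listed. The ratios of homozygous to wild type, heterozygous to wild type and homozygous to heterozygous gave 5, 3 and 6. With no low-count filter 12 members were called in nuclear heterozygous against wild type, where the fit called 7. No member of the main fit changed its call there, so the added calls were of low-count members that the filter had removed. DESeq2 called 7 in total heterozygous against wild type, in place of 11. With the wild-type column as deposited, 5 members were called in nuclear against total in the wild type, in place of 9. The cause of the last 2 was not tested.

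Leaving out each library in turn gave 10 to 12 calls in total homozygous against heterozygous, 12 to 13 in total homozygous and 9 to 11 in total heterozygous against wild type. In nuclear RNA the ranges were 9 to 12, 8 to 12 and 7 to 8 for the same comparisons. Nuclear against total gave 9 to 11 in the wild type, 8 to 10 in the heterozygous and 11 to 13 in the homozygous group. The ratios gave 12 to 14 for homozygous to heterozygous, 13 to 15 for homozygous to wild type and 8 to 11 for heterozygous to wild type. Same-numbered libraries of different groups did not deviate together (r from -0.10 to 0.10 over 15 pairs of groups, and 18 of 45 libraries were closest to their own number), so the numbers are only names. A replicate block gave 12 calls in total homozygous against heterozygous, 10 in total heterozygous against wild type and 14 in the ratio of homozygous to heterozygous, and the number called was the same as without it in the other 9. Depth limits the 53 members that no main fit tested and Hist1h1d in homozygous total RNA, where 3 counts are about the level measured.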
